A study of Capra hircus with 11 samples.

Results

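Passaged goat cells called CiMECs were compared gene by gene with the day 8 induced cells they derive from, called BFRTV8d. Both come from goat (Capra hircus) ear fibroblasts that were grown on Matrigel-coated plastic and switched from fibroblast medium to an induction medium of small molecules named BFRTV, whose components the labels do not give. CiMECs were cells that had been induced for 8 days and then split repeatedly in goat mammary epithelial cell medium. BFRTV8d cells were taken on day 8 of BFRTV, when primary colonies had formed. The labels do not give the passage number, and the change of medium, the passaging and the time since induction cannot be told apart. The series also holds the fibroblasts on day 0 (BFRTV0d), the cells on day 4 (BFRTV4d) and naturally derived goat mammary epithelial cells (GMECs), whose levels are given beside those of selected genes.

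For each gene the unique molecular identifiers (UMIs, tags that mark single captured transcripts) were added up across a table's barcodes, each of which stands for 1 captured cell. Sums were scaled to a total of 1000000, the unit called CPM, after ribosomal protein genes had been left out, because the CiMECs table lists 74 of them and the BFRTV8d table lists none. A gene was compared when both tables listed it and its level reached 10 CPM in at least 1 of them. This held for 8100 of the 13583 genes that both tables list, out of 16604 gene rows in the whole series, and 5483 genes lay under the minimum in both. Just inside the minimum stood RAPGEF1 (5.78 CPM in CiMECs, 10.01 CPM in BFRTV8d), and just outside it IKBKG (5.69 CPM in CiMECs, 10.00 CPM in BFRTV8d). The fold is the CPM in CiMECs over the CPM in BFRTV8d. Each fold is followed in parentheses by an exact 95% interval for counting error alone. Each group was deposited as 1 table whose barcodes carry no sample, although the labels list 1 CiMECs sample and 2 BFRTV8d samples, where the design text counts 3 for BFRTV8d. There was therefore no replicate and no test, and every difference below is one between these 2 tables.

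The mammary epithelium has an inner luminal layer, which secretes milk and is rich in the simple keratins KRT8, KRT18 and KRT19, and an outer basal layer, which is marked by KRT5, KRT14 and the transcription factor TP63 and can contract. GATA3, ELF5, EHF and FOXA1 are transcription factors of the luminal lineage. Fibroblasts differ from both in their fibrillar collagens. The intermediate filament protein vimentin (VIM) is abundant in fibroblasts but was not confined to them here, with 6145 CPM in BFRTV0d and 1237 CPM in GMECs.

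The CiMECs table held 5188 barcodes with 97203521 UMIs and that of BFRTV8d held 10152 barcodes with 103337253 UMIs. Without ribosomal protein genes, which took 25.6% of the CiMECs UMIs, the median per barcode was 12535 UMIs in CiMECs and 9089 UMIs in BFRTV8d. At an equal 3000 UMIs per barcode the median number of detected genes was 1114 in CiMECs and 1405 in BFRTV8d, and the 20 genes with the most UMIs took 28.7% and 23.9% of the totals of CiMECs and BFRTV8d. The lowest barcode had 500 UMIs in CiMECs and 2741 UMIs in BFRTV8d, and 12.9% of CiMECs barcodes had fewer than 2000. The tables shared 90 barcode sequences, 1.73% of those of CiMECs. The GMECs table shares with CiMECs its 74 ribosomal protein genes and a lowest barcode of 500 UMIs, while the 3 induction tables share their lack of such genes. The way the tables were made and the group cannot be told apart, and the part of these differences in the results was not tested.

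Both tables met the epithelial label. Of 10 epithelial markers, 9 were found in at least 10% of the barcodes in CiMECs and 9 in BFRTV8d at equal depth, and their summed level was 16867 CPM in CiMECs against 12542 CPM in BFRTV8d. The exception was the desmosome gene PKP3, with 8.85% of the barcodes in CiMECs and 7.95% in BFRTV8d. The 8 fibroblast markers, mostly collagens, summed to 10.8 CPM in CiMECs and 246 CPM in BFRTV8d, against 10542 CPM in BFRTV0d. LUM, DCN and PDGFRA were not listed in CiMECs. Of 75 genes that mark 9 other cell types, 18 were listed in CiMECs and 34 in BFRTV8d, and 4 and 7 of these reached 10 CPM. The summed levels per cell type ran up to 70.9 CPM in CiMECs and 438 CPM in BFRTV8d, in both cases for the chondrocyte list, where SOX9 gave 66.1 and 425 CPM. PECAM1 of endothelium, CSF1R and TYROBP of myeloid cells, CD3E of T cells and SOX10 of Schwann cells were listed in neither table. Other members of the same lists were listed in both. CD14 of the immune list had 14.7 CPM in CiMECs and 21.4 CPM in BFRTV8d, VWF of endothelium 0.802 and 2.66 CPM, and S100B of Schwann cells 5.37 and 3.67 CPM. The neuronal list summed to 12.4 CPM in CiMECs and 111 CPM in BFRTV8d.

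On the CPM scale, most genes were lower in CiMECs than in BFRTV8d, and a small set was much higher. At least 4-fold higher in CiMECs were 239 of the 8100 genes (2.95%), and at least 4-fold lower were 1360 (16.8%). At least 2-fold higher were 811 genes (10.0%) and at least 2-fold lower 3453 (42.6%), while 3836 lay within 2-fold. The median log2 fold of all genes was -0.76, and 27.4% of the genes were higher in CiMECs by any amount. Only 300 genes had an interval that included no difference, since the counts are large.

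The balance of higher and lower genes depends on the scaling. With TMM factors, which assume that most genes do not differ, the median of all genes was raised by 0.87, and with median-of-ratios factors by 0.93. Of the genes at least 4-fold apart, 14.9% were higher in CiMECs by CPM, against 49.2% by TMM and 52.8% by median-of-ratios scaling. Medians of gene lists are therefore given relative to the median of all 8100 genes, and a list median of 0 means a change like that of the typical gene. Counts of members at least 2-fold apart are on the CPM scale and stand against the 10.0% and 42.6% above.

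**Figure D1:**
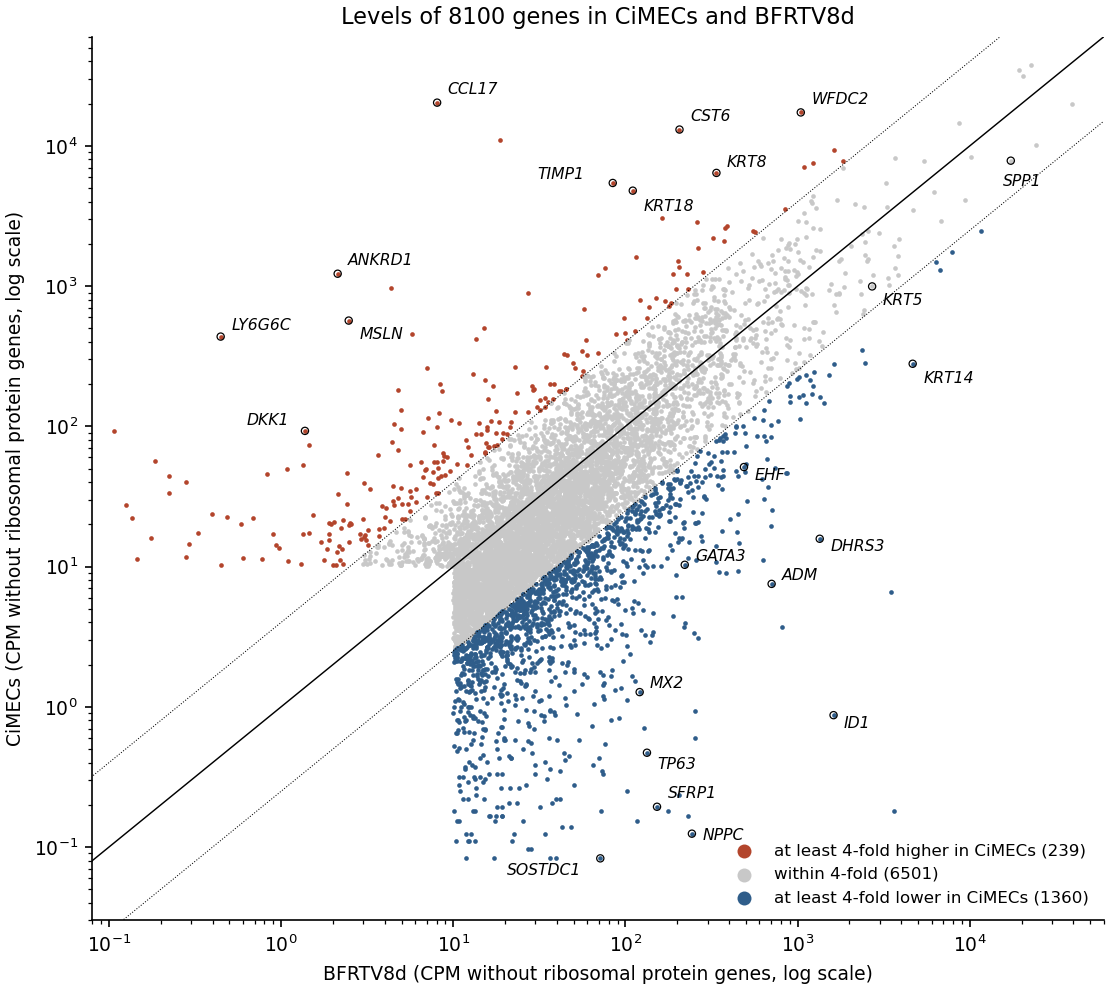
CPM without ribosomal protein genes of the 8100 genes in CiMECs (vertical, log scale) against BFRTV8d (horizontal, log scale), 1 point per gene. The solid line marks equal levels and the dotted lines 4-fold differences, with 239 genes above them, among them CCL17 and LY6G6C far to the upper left, and 1360 genes below, among them ID1 and NPPC.

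The fold also moved with the level. Among the 1468 genes with a geometric mean level under 10 CPM the median log2 fold was -1.72, among the 3272 genes of 10 to 30 CPM it was -0.83, and among the 2129 genes of 30 to 100 CPM it was -0.50. It was 0.02 for the 789 genes of 100 to 300 CPM, 0.36 for the 334 genes of 300 to 1000 CPM and 0.39 for the 108 genes above. The genes of the lowest bin could enter only by being high in 1 of the tables, and 11.3% of them were higher in CiMECs.

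**Figure D2:**
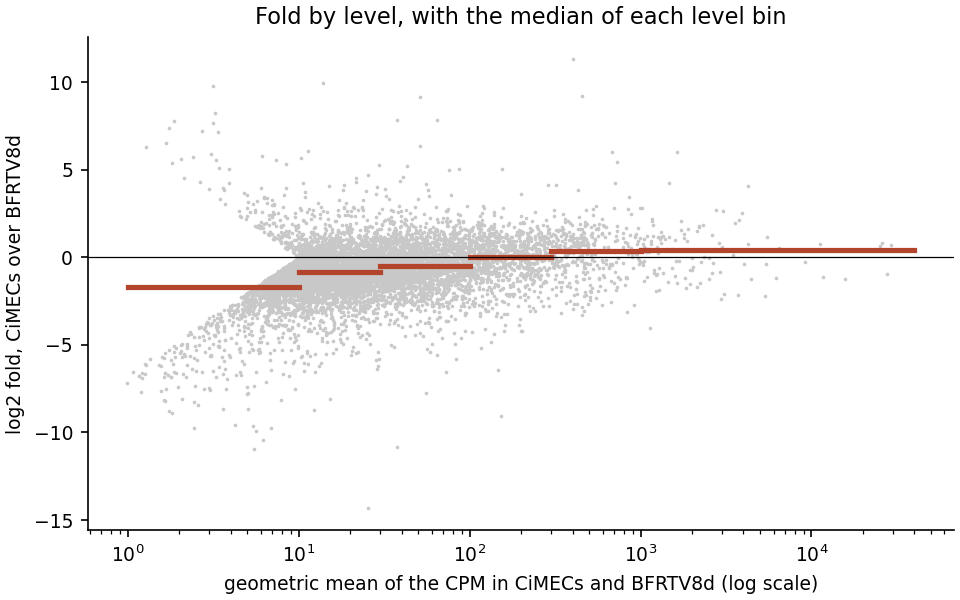
log2 fold of each of the 8100 genes (vertical) against the geometric mean of its CPM in CiMECs and BFRTV8d (horizontal, log scale), with a red bar for the median of each of 6 level bins. The bars climb from -1.72 in the lowest bin to 0.39 in the highest.

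The simple keratins were higher in CiMECs, while most other luminal genes were not. KRT18 had 4793 CPM in CiMECs against 110.3 CPM in BFRTV8d, 43.5-fold higher (42.7 to 44.3). KRT8, with which KRT18 pairs into filaments, had 6415 CPM in CiMECs against 338 CPM in BFRTV8d, 19.01-fold higher (18.8 to 19.2). KRT7 and the adhesion molecule EPCAM were 2.21-fold higher and 2.47-fold higher, and KRT19 lay within 2-fold at 3656 against 3291 CPM.

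The luminal transcription factors ran the other way. GATA3 had 10.3 CPM in CiMECs against 221 CPM in BFRTV8d, 21.5-fold lower (19.96 to 23.1), and EHF had 51.2 CPM in CiMECs against 488 CPM in BFRTV8d, 9.52-fold lower (9.21 to 9.85). ELF5, which drives the secretory lineage of the mouse mammary gland, had 0.871 CPM in CiMECs against 38.9 CPM in BFRTV8d, 44.7-fold lower (34.8 to 58.2). FOXA1, a pioneer factor that acts with hormone receptors, was 4.53-fold lower, and TFAP2C, of the AP-2 family, was not listed in CiMECs and had 26.5 CPM in BFRTV8d. In the luminal list, 15 of 26 genes were compared, with 4 higher and 10 lower by 2-fold or more. Its median was -0.47 relative to all genes, with a range of -1.17 to -0.42 over the 12 alternative settings, while KRT8 and KRT18 stood far above it. The prolactin receptor PRLR and the kinase receptor KIT were likewise listed in BFRTV8d but not in CiMECs, at 12.5 and 4.32 CPM. GMECs did not list TFAP2C, PRLR or KIT either.

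Basal genes were lower in CiMECs as a group. KRT14 had 279 CPM in CiMECs against 4659 CPM in BFRTV8d, 16.7-fold lower (16.4 to 16.9), whereas KRT5, its partner in basal filaments, had 995 CPM in CiMECs against 2709 CPM in BFRTV8d and was only 2.72-fold lower. TP63, which maintains basal epithelial cells, came to 34 UMIs in all of CiMECs and 13771 UMIs in BFRTV8d, or 0.470 against 133 CPM, 283-fold lower (203 to 409). The hemidesmosome genes ITGA6, ITGB4, COL17A1 and DST, which anchor basal cells to the basement membrane, were 6.05-fold lower, 3.74-fold lower, 5.77-fold lower and 24.1-fold lower. P-cadherin (CDH3) was 19.8-fold lower (17.4 to 22.6). In the basal list, 18 of 20 genes were compared, with 2 higher and 14 lower by 2-fold or more, and a median of -1.45 relative to all genes. The exceptions were LAMB3, a chain of laminin-332, at 248 against 56.8 CPM (4.37-fold higher), and its receptor chain ITGA3 at 226 against 74.02 CPM (3.05-fold higher). LAMA3, another laminin chain, had 75.8 against 66.6 CPM, CiMECs first.

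Shares of barcodes with a UMI were set at 3000 UMIs per barcode, which 938 CiMECs barcodes and 8 BFRTV8d barcodes did not reach. KRT8 was found in 99.6% (95% interval 99.3 to 99.7) of CiMECs and in 55.3% (95% interval 54.3 to 56.2) of BFRTV8d barcodes, and KRT18 in 96.9% and 25.3%, CiMECs first. KRT14 was found in 27.3% (95% interval 25.98 to 28.7) of CiMECs and 97.3% (95% interval 96.96 to 97.6) of BFRTV8d barcodes. Without thinning the KRT14 shares were 49.2% in CiMECs and 99.6% in BFRTV8d, and those of KRT8 were 99.1% and 83.8%. In BFRTV0d, the fibroblast table, KRT8 and KRT14 were found in 12.6% and 14.7% of barcodes at that depth, where the median was 10070 UMIs. KRT14 had 642 CPM in BFRTV0d, above CiMECs, so no order was read from its share in those 2 tables.

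KRT14 was spread unevenly over the passaged cells. The 10% of CiMECs barcodes richest in it held 74.9% of its UMIs, against 38.5% for KRT8, while in BFRTV8d the richest 10% held 31.2% of the KRT14 UMIs. KRT5 and KRT14 were found together in 24.1% of CiMECs barcodes and in 94.9% of BFRTV8d barcodes. KRT8 and KRT5, a luminal with a basal keratin, were found together in 78.5% of CiMECs barcodes, 54.4% of BFRTV8d barcodes and 77.6% of GMECs barcodes. Another such pair, KRT18 and KRT14, was found together in 26.6% of CiMECs barcodes and in 25.0% of BFRTV8d barcodes. A pair cannot be found in more barcodes than its rarer gene. In BFRTV8d nearly all barcodes with KRT8 also had KRT5, so the lower share of that pair there follows the KRT8 share. TP63 was found in 0.0235% of CiMECs barcodes and 32.1% of BFRTV8d barcodes, GATA3 in 3.20% and 46.01%, and EHF in 14.5% and 71.6%, CiMECs first in each pair.

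**Figure D3:**
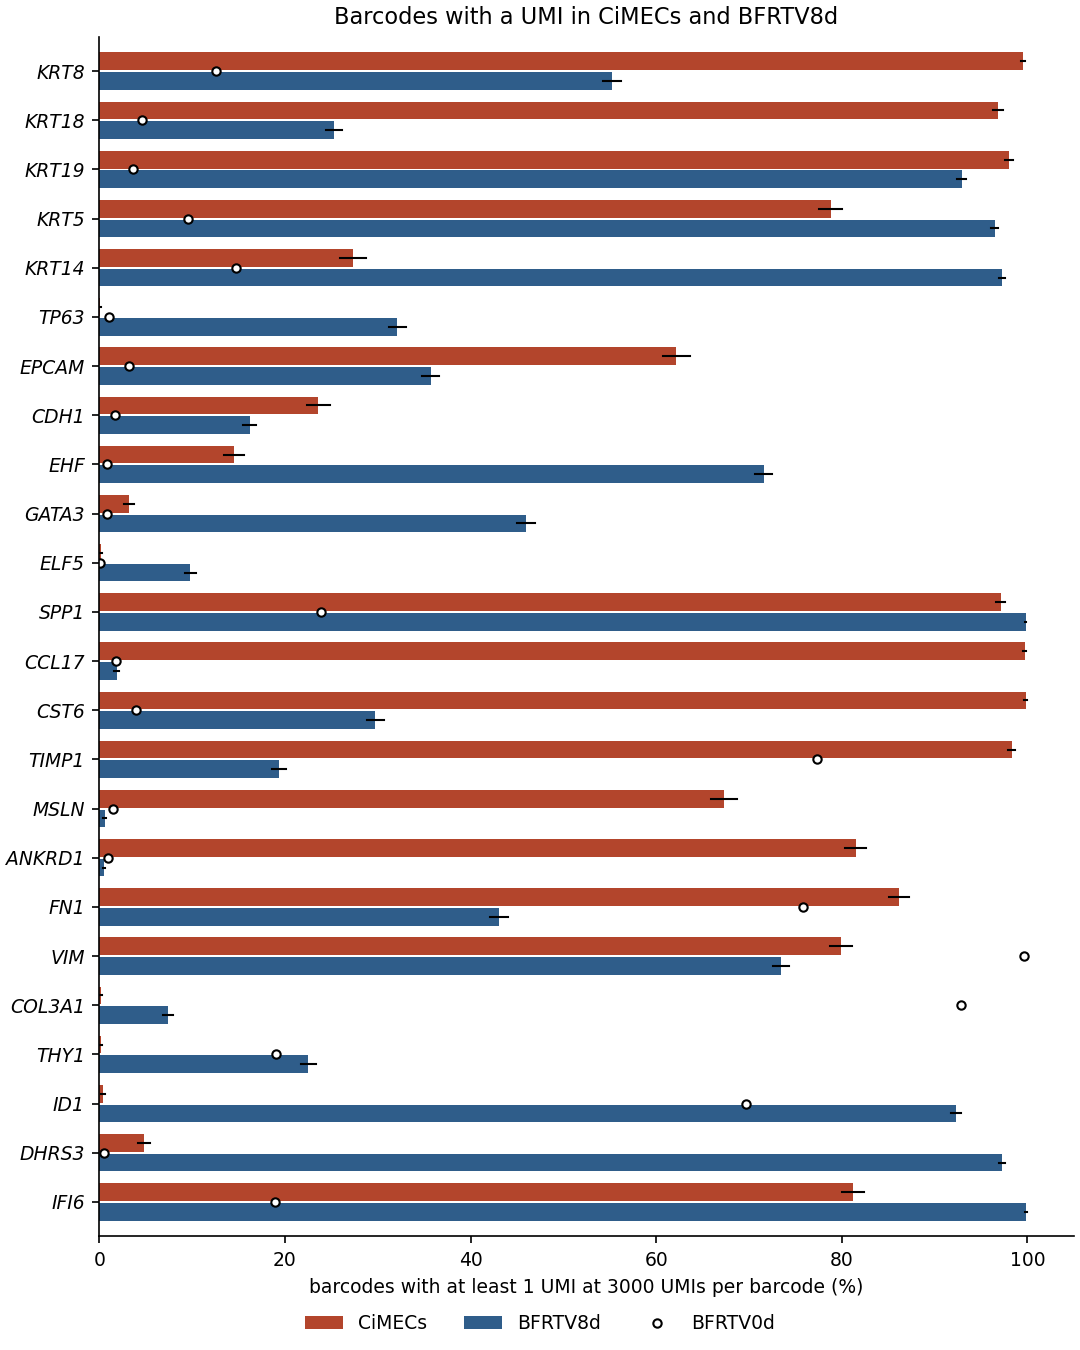
Share of barcodes with at least 1 UMI of a gene (horizontal, percent) after thinning each barcode to 3000 UMIs, for 24 genes, in CiMECs (upper bar, red) and BFRTV8d (lower bar, blue), with exact 95% binomial intervals as black lines and the share in BFRTV0d as open circles. CCL17, KRT18, CST6, MSLN and ANKRD1 have far longer bars in CiMECs, and KRT14, TP63, EHF, GATA3, ID1 and DHRS3 in BFRTV8d.

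Junction genes did not move as a group. In the junction list, 21 of 31 genes were compared, with 3 higher and 8 lower by 2-fold or more, and a median of 0.13 relative to all genes and a range of -0.67 to 0.16 over the alternatives. E-cadherin (CDH1), the main adhesion protein of epithelial cells, had 86.9 CPM in CiMECs against 59.6 CPM in BFRTV8d, and occludin (OCLN), a tight junction protein, had 15.1 against 15.6 CPM. The polarity gene CRB3 was 5.05-fold higher (4.69 to 5.44). Lower were PERP, a desmosome-associated membrane protein, at 163 against 1018 CPM (6.25-fold lower), desmoplakin (DSP, 3.12-fold lower), and the transcription factors GRHL1 (8.86-fold lower) and OVOL1 (47.4-fold lower), which control epithelial gene programmes.

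Milk genes were few in either table. Of 20 genes of the milk list, 10 were listed in at least 1 of the tables and 4 were compared, none of them at least 2-fold higher in CiMECs and 3 at least 2-fold lower. Osteopontin (SPP1), a phosphoprotein abundant in milk, had 7842 CPM in CiMECs against 17305 CPM in BFRTV8d, 2.21-fold lower (2.20 to 2.21), and was found in 97.1% of CiMECs and 99.8% of BFRTV8d barcodes. PLIN2, which coats lipid droplets, had 11.1 CPM in CiMECs against 630.2 CPM in BFRTV8d, 56.9-fold lower (53.05 to 61.1). Kappa-casein (CSN3) and lactoferrin (LTF) were not listed in CiMECs and had 14.5 and 30.7 CPM in BFRTV8d, where they were found in 3.56% and 5.80% of barcodes.

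Lipid synthesis genes tended lower. In the fatty acid and triglyceride list, 13 of 23 genes were compared, with 1 higher and 9 lower by 2-fold or more, and a median of -0.54 relative to all genes. The desaturase FADS1 was 50.4-fold lower (33.2 to 80.7), and the elongase ELOVL5 7.08-fold lower, whereas another elongase, ELOVL1, was 2.66-fold higher. In the cholesterol list, 16 of 23 genes were compared, with none higher and 10 lower by 2-fold or more, and a median of -0.43. Squalene epoxidase (SQLE) was 6.32-fold lower and SREBF2, the transcription factor that controls the pathway, 4.53-fold lower. A fatty acid binding protein gene with the RefSeq synonym A-FABP (LOC100861279) had 282 CPM in BFRTV8d and was not listed in CiMECs.

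CCL17, a chemokine that attracts T cells through the receptor CCR4, had the highest fold of the genes compared, with 20336 CPM in CiMECs against 8.05 CPM in BFRTV8d, 2526-fold higher (2359.8 to 2707). It was found in 99.7% of CiMECs barcodes and in 1.87% of BFRTV8d barcodes, against 1.83% of BFRTV0d and 6.83% of BFRTV4d barcodes. LOC102169211, a protein-coding gene without a name, lies next to CCL17 in the RefSeq gene order of assembly ARS1.2 and had 11051 CPM in CiMECs against 18.6 CPM in BFRTV8d, 595-fold higher (569 to 622). Both were found together in 98.4% of CiMECs barcodes. The next neighbours, CX3CL1 on the side of CCL17 and CIAPIN1 on the other, had 7.65 and 76.6 CPM in CiMECs against 2.69 and 45.4 CPM in BFRTV8d. Reads shared between adjacent genes could not be checked.

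Cystatin E/M (CST6), which inhibits lysosomal cysteine proteases, had 13073 CPM in CiMECs against 206 CPM in BFRTV8d, 63.5-fold higher (62.6 to 64.4). TIMP1, an inhibitor of matrix metalloproteases, had 5438 CPM in CiMECs against 84.3 CPM in BFRTV8d, 64.5-fold higher (63.1 to 65.9). WFDC2, a whey acidic protein family member made by many epithelia, had 17320.5 CPM in CiMECs against 1043 CPM in BFRTV8d, 16.6-fold higher (16.5 to 16.7).

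Of the other genes at the top, mesothelin (MSLN), a membrane-anchored glycoprotein, had 568 CPM in CiMECs against 2.47 CPM in BFRTV8d, 230.1-fold higher (203 to 261). LY6G6C, a small membrane-anchored protein, was 980.5-fold higher (735 to 1339.5), ANKRD1, a nuclear protein first known from heart muscle, 576-fold higher (504 to 660.1), and the sulfotransferase SULT2B1 224-fold higher (204 to 246). ANKRD1 had 1226 CPM in CiMECs against 2.13 CPM in BFRTV8d and was found in 81.5% of CiMECs and 0.493% of BFRTV8d barcodes. The membrane proteins EMP3 and MAL were 33.4-fold higher and 37.8-fold higher, and DKK1, a secreted WNT inhibitor, 67.5-fold higher (57.2 to 80.3). At equal depth DKK1 was found in only 6.21% of CiMECs barcodes and 0.394% of BFRTV8d barcodes. Without thinning, its CiMECs UMIs came from 11.2% of barcodes, a clustering that its interval does not cover. The metalloprotease MMP23B, ARHGDIG and the autophagy protein MAP1LC3C were 51.03-fold higher, 39.5-fold higher and 306-fold higher.

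Matrix proteases and their inhibitors split. In the protease list, 17 of 28 genes were compared, with 4 higher and 11 lower by 2-fold or more, and a median of -0.67 relative to all genes. The inhibitors TIMP2 and TIMP3 were 2.14-fold higher and 3.82-fold higher, and urokinase (PLAU) 2.65-fold higher. ADAMTS1 was 767-fold lower (429 to 1538), gelatinase A (MMP2) had 1.13 against 74.9 CPM (66.1-fold lower), SERPINE2 14.7 against 457 CPM (31.1-fold lower) and tissue plasminogen activator (PLAT) 17.7 against 442 CPM (24.9-fold lower).

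S100 genes, which encode small calcium-binding proteins, stood above the typical gene. In the S100 list, 10 of 17 genes were compared, with 4 higher and 1 lower by 2-fold or more, and a median of 1.47 relative to all genes and 1.15 to 1.61 over the alternatives. S100A11 had 9398 CPM in CiMECs against 1628 CPM in BFRTV8d, 5.77-fold higher (5.74 to 5.80), and S100A10, the partner of annexin A2, had 6969.8 against 1834 CPM. S100A2 took 34474 CPM in CiMECs and 19427 CPM in BFRTV8d. Several members lie above 1000 CPM, where the median log2 fold of the genes compared was 0.39. The part of the level in the list median was not tested. S100A8, an antimicrobial subunit of calprotectin, went against the list with 1200.2 CPM in CiMECs against 3822 CPM in BFRTV8d, 3.18-fold lower (3.16 to 3.21), while its partner S100A9 had 594 against 772 CPM.

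Among keratinocyte differentiation genes, 11 of 33 genes were compared, with 3 higher and 2 lower by 2-fold or more, and a median of 1.05 relative to all genes. The kallikrein KLK10 had 1622 CPM in CiMECs against 115 CPM in BFRTV8d, 14.1-fold higher (13.8 to 14.3), whereas KLK11 was 6.57-fold lower. The crosslinking enzyme TGM1 was 2.37-fold higher, and involucrin (IVL), a protein of the cornified envelope, had 60.8 against 63.2 CPM. The mucosal secretory list split, with 3 higher and 3 lower by 2-fold or more of 7 genes compared and a median of 1.38, and its sign on the CPM scale turned without a minimum level. MSLN, WFDC2 and LAMP3 were at least 4-fold higher, LAMP3 with 73.2 CPM in CiMECs against 7.70 CPM in BFRTV8d, while AGR2, TFF3 and MUC13 of mucous cells were 402-fold lower (235 to 755), 74.7-fold lower (61.9 to 90.9) and 50.4-fold lower (41.7 to 61.6).

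In the chemokine and cytokine list, 14 of 33 genes were compared, with 6 higher and 4 lower by 2-fold or more, and a median of 1.18 relative to all genes. CCL20, which attracts cells through CCR6, had 2192 CPM in CiMECs against 323 CPM in BFRTV8d, 6.79-fold higher (6.71 to 6.87). CXCL8, a neutrophil attractant, was 3.80-fold lower, IL1A 5.29-fold lower and CXCL14 24.8-fold lower. NPPC, the precursor of C-type natriuretic peptide, was 1953-fold lower (1029 to 4271). CXCL12 and the peptide gene EDN3 were not listed in CiMECs and had 82.1 and 137 CPM in BFRTV8d. CSF2, a growth factor for myeloid cells, was listed in CiMECs alone of the 2 tables, at 20.9 CPM.

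Most fibroblast and mesenchymal genes were lower in CiMECs. In the mesenchymal list, 17 of 36 genes were compared, with 1 higher and 12 lower by 2-fold or more, and 10 more members were listed in BFRTV8d but not in CiMECs. The median was -3.27 relative to all genes. COL3A1, a fibrillar collagen, had 1.33 CPM in CiMECs against 87.2 CPM in BFRTV8d, 65.7-fold lower (53.7 to 81.2). COL1A1 had 4.83 against 38.3 CPM, 7.93-fold lower (7.11 to 8.88). Without thinning, the CiMECs UMIs of COL3A1 and COL1A1 came from only 0.135% and 0.154% of barcodes. The intervals treat UMIs as separate counts and do not cover such clustering in few cells. The glycoproteins SPARC and THY1 were 59.3-fold lower and 111-fold lower, and the mesenchymal transcription factors SNAI2 and PRRX1 35.2-fold lower and 31.2-fold lower. Barcodes with at least 2 UMIs of 7 collagen and proteoglycan genes made up 0.0771% of CiMECs (4 barcodes) and 7.61% of BFRTV8d (773 barcodes). Without these barcodes in either table the list median was -1.98 relative to all genes. The barcodes were chosen by fibroblast genes and nearly all came from BFRTV8d, so a move toward the typical gene followed from the choice. Genes that fell under the minimum also left the comparison, which then held 8089 genes. The value was therefore not read as a result about the remaining cells. At equal depth COL3A1 was found in 0.141% of CiMECs and 7.36% of BFRTV8d barcodes. The summed values alone do not separate fewer fibroblast-like cells from less collagen RNA per cell, and the part of each was not tested.

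Fibronectin and vimentin did not follow the collagens. FN1, a matrix glycoprotein, had 1128 CPM in CiMECs against 348 CPM in BFRTV8d, 3.24-fold higher (3.20 to 3.29), and was found in 86.2% of CiMECs and 43.1% of BFRTV8d barcodes. EPCAM and FN1 were found together in 54.7% of CiMECs barcodes, 14.8% of BFRTV8d barcodes and 57.2% of GMECs barcodes. EPCAM, with or without FN1, was found in 62.2% of CiMECs and 35.7% of BFRTV8d barcodes. An excess of the pair over what the single shares give was not tested. VIM had 874 CPM in CiMECs against 1212 CPM in BFRTV8d. It was found with KRT8 in 79.7% of CiMECs barcodes, 42.2% of BFRTV8d barcodes and 87.9% of GMECs barcodes. In BFRTV8d the share of this pair is limited by the lower share of barcodes with KRT8. S100A4 and the collagen crosslinker LOXL1 lay within 2-fold, at 3694 against 2444 CPM and 81.6 against 58.9 CPM.

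TGF-beta response genes were mixed. In the TGF-beta list, 17 of 25 genes were compared, with 3 higher and 6 lower by 2-fold or more, and a median of 0.19 relative to all genes, 0.16 to 0.37 over the alternatives. TAGLN, an actin-binding protein of smooth muscle, had 3070.2 CPM in CiMECs against 162 CPM in BFRTV8d, 18.9-fold higher (18.6 to 19.2), and was found in 93.4% of CiMECs and 23.2% of BFRTV8d barcodes. PMEPA1, an inhibitor of the pathway, was 2.56-fold higher. TGFBI, LTBP2 and CTGF, all matrix proteins, were 13.5-fold lower, 22.8-fold lower and 3.35-fold lower.

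Contractile genes were mixed too. In the contractile list, 10 of 16 genes were compared, with 2 higher and 6 lower by 2-fold or more, and a median of -0.57 relative to all genes. The myosin light chain MYL9 had 801 CPM in CiMECs against 122 CPM in BFRTV8d, 6.56-fold higher (6.44 to 6.69), whereas smooth muscle actin (ACTA2) had 31.2 CPM in CiMECs against 285 CPM in BFRTV8d, 9.14-fold lower (8.76 to 9.54), and the myosin kinase MYLK 10.1 against 160.5 CPM, 15.9-fold lower (14.8 to 17.1). Tropomyosin 1 (TPM1) and caldesmon (CALD1) had 949 against 981 CPM and 663 against 785 CPM. TAGLN and MYL9 thus stood apart from ACTA2, CNN1 (6.36-fold lower) and TPM2 (8.17-fold lower) of the same apparatus.

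Genes of the BMP pathway, in which receptors signal through SMAD proteins to the ID genes, were lower in CiMECs. ID1, an inhibitor of basic helix-loop-helix transcription factors, came to 63 UMIs in all of CiMECs and 167061 UMIs in BFRTV8d, or 0.871 against 1617 CPM, 1855-fold lower (1449.8 to 2414). It was found in 0.353% of CiMECs and 92.3% of BFRTV8d barcodes. ID2 and ID3 were 15.3-fold lower (14.3 to 16.4) and 6.74-fold lower (6.66 to 6.83), and ID4 was not listed in CiMECs and had 24.5 CPM in BFRTV8d. In the BMP and WNT list, 14 of 29 genes were compared, with 1 higher and 12 lower by 2-fold or more, and a median of -2.35 relative to all genes. The WNT inhibitor SFRP1 was 787-fold lower (469 to 1440.4), the BMP and WNT antagonist SOSTDC1 860.2-fold lower (395 to 2345), and the ligands WNT5A and WNT7B 72.02-fold lower and 53.7-fold lower. DKK1 was the only member of that list at least 2-fold higher, and it was found in only 6.21% of CiMECs barcodes at equal depth.

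Retinoid genes split. In the retinoid list, 10 of 22 genes were compared, with 4 higher and 5 lower by 2-fold or more, and a median of 0.29 relative to all genes that changed sign over the alternatives (-0.48 to 1.64). DHRS3, which reduces retinaldehyde and is itself induced by retinoic acid, had 15.8 CPM in CiMECs against 1344 CPM in BFRTV8d, 85.1-fold lower (80.3 to 90.3). The receptor RARG was 20.2-fold lower, and RARB was not listed in CiMECs and had 6.87 CPM in BFRTV8d. Higher were ALDH1A3, which makes retinoic acid, at 262 against 7.06 CPM (37.04-fold higher), the binding protein CRABP2 at 2419 against 568 CPM (4.26-fold higher), and the transglutaminase TGM2 (12.4-fold higher). CRABP1 was listed in BFRTV8d alone, at 28.5 CPM.

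Immediate early and cAMP-induced genes, which are switched on within minutes by growth factors, stress or cell dissociation, were lower in CiMECs. In their list, 22 of 28 genes were compared, with none higher and 18 lower by 2-fold or more, and a median of -2.57 relative to all genes and -2.90 to -2.48 over the alternatives. The transcription factors EGR1, FOS and JUN had 19.5 against 701 CPM, 42.04 against 619 CPM and 44.4 against 452 CPM, CiMECs first, and EGR1 was 35.9-fold lower (34.1 to 37.9). PDE4B and PDE4D, which break down cAMP, were 47.9-fold lower and 42.6-fold lower. AREG, a ligand of the EGF receptor, went the other way at 467 against 319.7 CPM. Differences in handling between the tables were not tested.

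In the EGF receptor list, 17 of 23 genes were compared, with 1 higher and 12 lower by 2-fold or more, and a median of -0.86 relative to all genes. The receptor EGFR had 13.9 CPM in CiMECs against 61.4 CPM in BFRTV8d, 4.43-fold lower (4.14 to 4.74), the ligand NRG1 5.64 against 112 CPM (19.8-fold lower), and the feedback inhibitors SPRY2 and DUSP4 were 31.1-fold lower and 12.05-fold lower. In the IGF list, 10 of 18 genes were compared, with 1 higher and 8 lower by 2-fold or more, and a median of -1.47. The receptor IGF1R had 17.9 CPM in CiMECs against 365 CPM in BFRTV8d, 20.4-fold lower (19.3 to 21.5), and IGFBP5, which binds IGFs and is known from involution of the mouse mammary gland, 0.705 against 128 CPM, 181-fold lower (137 to 243). IGFBP6 was the exception, at 755 against 198 CPM (3.82-fold higher).

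Interferon-stimulated genes, which cells switch on in response to interferons, were lower in CiMECs throughout. In the interferon list, 21 of 30 genes were compared, with none higher and 20 lower by 2-fold or more, and a median of -2.08 relative to all genes and -2.52 to -1.85 over the alternatives. IFI6 had 1292 CPM in CiMECs against 6707 CPM in BFRTV8d, 5.19-fold lower (5.16 to 5.23), and was found in 81.2% of CiMECs and 99.9% of BFRTV8d barcodes. The antiviral genes MX2, RSAD2 and IFIT3 were 94.98-fold lower (77.4 to 118), 90.9-fold lower (73.05 to 115) and 66.7-fold lower (55.7 to 80.6), and ISG15, a ubiquitin-like modifier, was 8.33-fold lower (8.04 to 8.64). The only compared member within 2-fold was IRF7, at 30.3 against 43.9 CPM. Antigen presentation genes stood nearer to the typical gene. In that list, 8 of 13 genes were compared, with none higher and 4 lower by 2-fold or more, and a median of -0.27, and the light chain B2M had 882 against 2349 CPM.

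**Figure D4:**
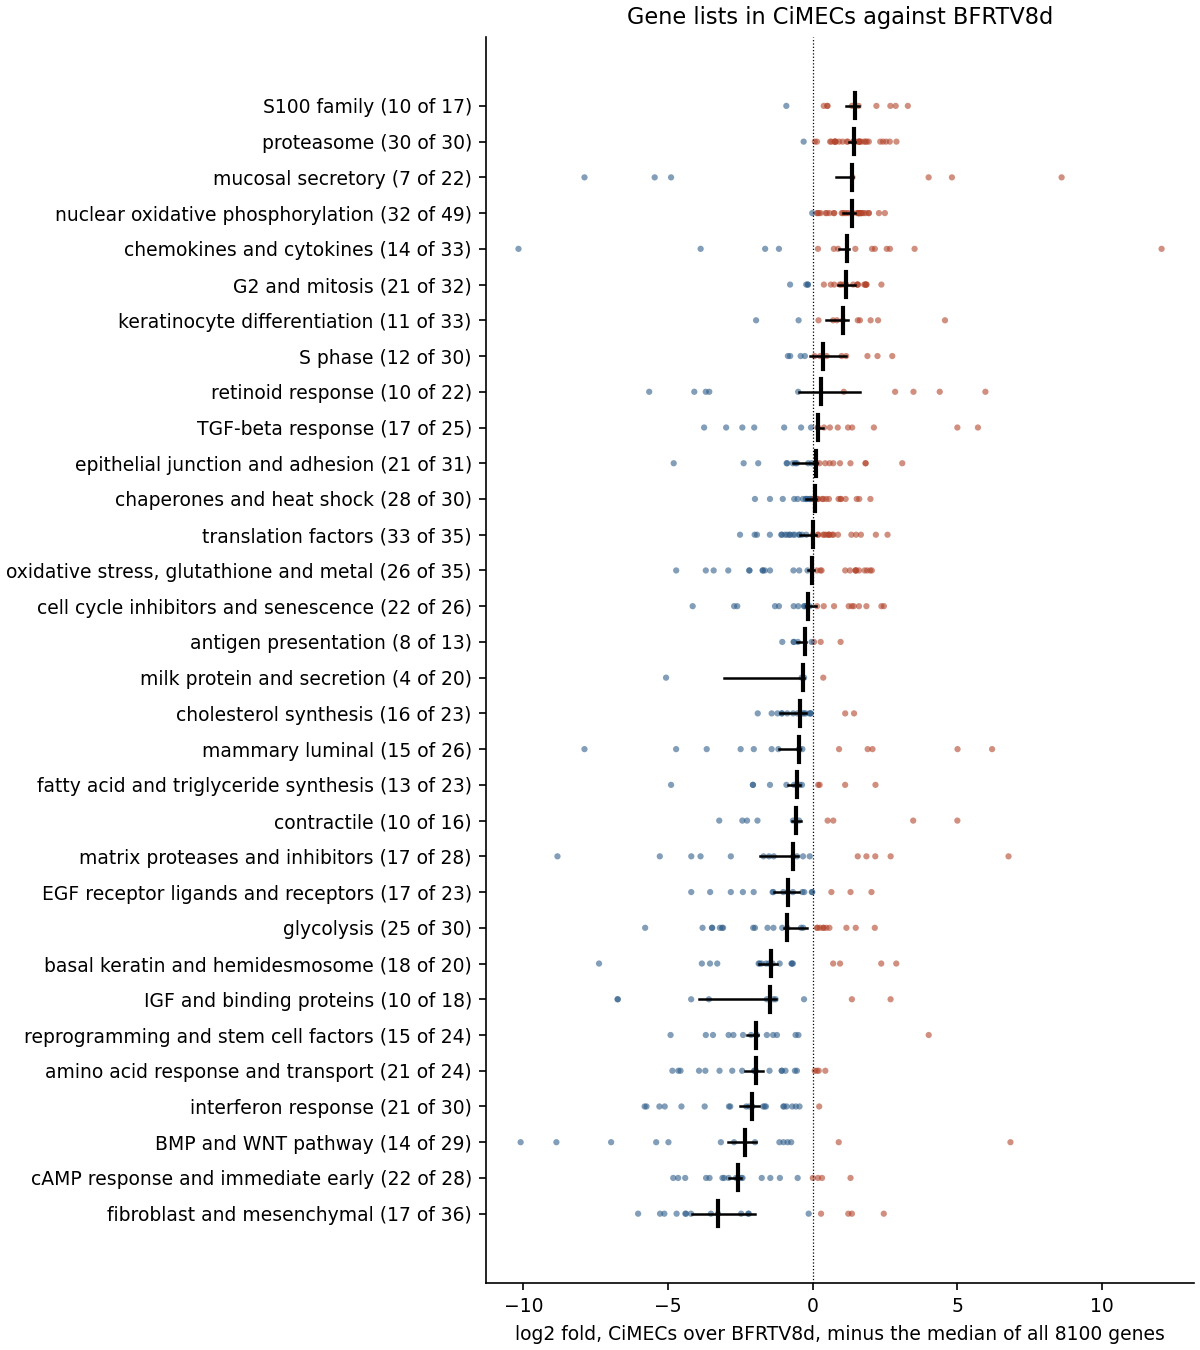
log2 fold of CiMECs over BFRTV8d minus the median of all 8100 genes (horizontal) for the members of 32 gene lists, 1 row per list, with the number of members compared of the number in the list. Points are genes (red above 0, blue below), the thick tick is the list median and the thin line its range over the alternative settings. Fibroblast, immediate early, BMP and WNT, and interferon lists lie furthest to the left, and S100, proteasome and oxidative phosphorylation lists to the right.

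Amino acid synthesis and transport genes were lower in CiMECs. In the amino acid list, 21 of 24 genes were compared, with none higher and 17 lower by 2-fold or more, and a median of -1.96 relative to all genes. ATF4, the transcription factor of the amino acid response, had 85.7 CPM in CiMECs against 584 CPM in BFRTV8d, 6.81-fold lower (6.64 to 6.995). The serine synthesis enzymes PHGDH and PSAT1 were 40.2-fold lower (35.3 to 45.9) and 42.3-fold lower (37.3 to 48.2), and the transporters SLC7A5 and SLC1A4 25.8-fold lower and 48.9-fold lower. The taurine transporter SLC6A6, outside the list, was 864-fold lower (539.6 to 1484).

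Glycolysis and hypoxia genes were mostly lower. In the glycolysis list, 25 of 30 genes were compared, with 1 higher and 15 lower by 2-fold or more, and a median of -0.87 relative to all genes. The glucose transporter SLC2A1 had 23.7 CPM in CiMECs against 449 CPM in BFRTV8d, 18.9-fold lower (18.1 to 19.9), and the hypoxia-induced peptide ADM 7.53 against 706 CPM, 93.8-fold lower (86.2 to 102). The enzymes TPI1, ENO1 and PGK1 lay within 2-fold, at 546 against 329.9 CPM, 583 against 762 CPM and 195 against 255 CPM, whereas the muscle-type enzyme PFKM was 14.9-fold lower and the neuronal enolase ENO2 18.8-fold lower. CA9, a carbonic anhydrase induced by hypoxia, was the member at least 2-fold higher, with 13.2 against 5.04 CPM.

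Nuclear genes of oxidative phosphorylation stood above the typical gene. In the respiratory list, 32 of 49 genes were compared, with 6 higher and none lower by 2-fold or more, and a median of 1.37 relative to all genes and 1.05 to 1.47 over the alternatives. NDUFB8 of complex I had 931 CPM in CiMECs against 279 CPM in BFRTV8d, 3.33-fold higher (3.29 to 3.38), and SDHD of complex II the lowest fold at 77.6 against 133 CPM. Of the 32 genes 31 lay above the median of all genes. The proteasome list was alike, where 30 of 30 genes were compared, with 9 higher and 1 lower by 2-fold or more, and a median of 1.45. PSMD8, of the regulatory particle, was 4.40-fold higher (4.31 to 4.48), and PSMD13 2.10-fold lower. Most members of both lists lie at levels where the typical fold was near or above 0, and the part of the level in their medians was not tested.

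Redox genes split. In the oxidative stress list, 26 of 35 genes were compared, with 4 higher and 12 lower by 2-fold or more, and a median of -0.01 relative to all genes, which changed sign over the alternatives (-0.14 to 0.04). The catalytic subunit of glutathione synthesis, GCLC, was 44.6-fold lower (38.4 to 52.2), catalase (CAT) 12.8-fold lower (12.1 to 13.6) and the intestinal glutathione peroxidase GPX2 7.69-fold lower (7.54 to 7.85), whereas GPX4 and the peroxiredoxins PRDX2 and PRDX5 were 2.17-fold higher, 2.05-fold higher and 2.44-fold higher. The ferritin chains parted, FTH1 with 37439.9 CPM in CiMECs against 22698 CPM in BFRTV8d and FTL with 2455 CPM in CiMECs against 11558 CPM in BFRTV8d. The lowest fold of all 8100 genes, named after its value was seen, was that of LOC102174170, which RefSeq lists with the synonym GSTA3. It had 13 UMIs in CiMECs and 376138 UMIs in BFRTV8d, or 0.180 against 3639.9 CPM, and reads of the related glutathione transferase genes could not be told apart here.

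Chaperones and translation factors lay near the typical gene. In the chaperone list, 28 of 30 genes were compared, with 1 higher and 7 lower by 2-fold or more, and a median of 0.08, and in the translation list, 33 of 35 genes were compared, with 2 higher and 15 lower by 2-fold or more, and a median of 0.00, both relative to all genes and both of changing sign over the alternatives. The small heat shock protein HSPB1 had 1667 CPM in CiMECs against 708 CPM in BFRTV8d, while DDIT3, a stress-induced transcription factor, was 6.76-fold lower. EIF6, which acts on the large ribosomal subunit, was 3.55-fold higher and the poly(A)-binding protein PABPC1 9.66-fold lower (9.47 to 9.85).

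Mitotic genes stood above the typical gene. In the G2 and mitosis list, 21 of 32 genes were compared, with 6 higher and 1 lower by 2-fold or more, and a median of 1.16 relative to all genes and 0.89 to 1.45 over the alternatives. UBE2C, a ubiquitin enzyme of the anaphase-promoting complex, had 89.3 CPM in CiMECs against 42.3 CPM in BFRTV8d, 2.11-fold higher (2.03 to 2.20), and cyclin B1 (CCNB1) 22.4 against 10.7 CPM, 2.09-fold higher (1.93 to 2.26). HMGB2, a chromatin protein, was the exception at 2.91-fold lower. Barcodes with at least 2 UMIs of 8 mitosis genes made up 26.1% of CiMECs and 13.01% of BFRTV8d, without thinning. MKI67, the proliferation marker, lay under the minimum, at 6.13 against 5.78 CPM, and was found in 1.91% (95% interval 1.52 to 2.36) of CiMECs and 1.34% (95% interval 1.13 to 1.58) of BFRTV8d barcodes at equal depth. In the S phase list, 12 of 30 genes were compared, with 3 higher and 4 lower by 2-fold or more, and a median of 0.37 that changed sign over the alternatives (-0.10 to 1.15). The replication clamp PCNA had 72.2 against 32.9 CPM and was 2.19-fold higher. Its log2 fold was -0.01 once the barcodes with mitosis UMIs were left out of both tables. These barcodes were chosen by cell cycle genes at unequal depth and took a larger share of CiMECs. A lower fold of a cycling gene could therefore follow from the choice alone, and the value was not read as a result about the remaining cells.

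Among cell cycle inhibitors, 22 of 26 genes were compared, with 3 higher and 9 lower by 2-fold or more, and a median of -0.15 relative to all genes that changed sign over the alternatives. The kinase inhibitors CDKN1A and CDKN1C were 2.14-fold higher and 3.25-fold higher (3.03 to 3.49), whereas CDKN1B and CDKN2C were 10.3-fold lower and 11.1-fold lower. Cyclin D1 (CCND1), which promotes entry into the cycle, had 797 CPM in CiMECs against 259.9 CPM in BFRTV8d, and the antiproliferative BTG1 was 30.1-fold lower (24.3 to 37.7).

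Stem cell and reprogramming factors were lower in CiMECs. In the stem cell list, 15 of 24 genes were compared, with 1 higher and 14 lower by 2-fold or more, and a median of -1.95 relative to all genes. MYC had 15.1 CPM in CiMECs against 279 CPM in BFRTV8d, 18.5-fold lower (17.4 to 19.6), SOX4 233 against 1524 CPM (6.55-fold lower), SOX9 66.1 against 425 CPM (6.44-fold lower) and KLF4 6.003 against 76.2 CPM (12.7-fold lower). SOX2 was not listed in CiMECs and had 21.2 CPM in BFRTV8d. The single member at least 2-fold higher was PROCR, the protein C receptor, at 21.6 against 2.27 CPM, 9.52-fold higher (8.29 to 10.97).

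Other genes also stood at the low end. The proton pump subunit ATP6V1B1 was 982-fold lower (574 to 1845) and the lysophosphatidic acid receptor LPAR6 218-fold lower (194 to 247). The membrane protein CLCA2 was 411-fold lower (260.0 to 694), the calcification inhibitor MGP 212-fold lower (144 to 328) and the glycoprotein hormone STC2 182-fold lower (118 to 298). LPAR6 had 3.73 CPM in CiMECs against 816 CPM in BFRTV8d and ATP6V1B1 0.180 against 177 CPM. C28H10orf99 and PARM1 had 0.927 against 253 CPM and 0.332 against 73.8 CPM. All 7 genes were at most 3.73 CPM in CiMECs.

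Genes that only 1 of the tables lists could not be given a fold. The CiMECs table lists genes found in at least 6 cells and the BFRTV8d table those found in at least 11 cells, so a gene not listed may still be present in fewer cells. Of the genes listed in BFRTV8d alone of these 2 tables, 93 reached 10 CPM, against 4 listed in CiMECs alone. A few cells can hold many UMIs, so no bound on a fold was set for these genes. The levels in BFRTV8d were 137 CPM for EDN3, a ligand of endothelin receptors, 124 CPM for the small heat shock protein gene HSPB8, 102 CPM for the receptor phosphatase PTPRS and 70.4 CPM for NRP1, a coreceptor of semaphorins and VEGF. CSF2 was the only gene with a symbol among those listed in CiMECs alone at this level.

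Of the 239 genes at least 4-fold higher, 199 reached 10 CPM in GMECs (83.3%), near the share of all 8100 genes (6453, 79.7%). Of the 1360 at least 4-fold lower, 580 did (42.6%). CCL17 had 33678 CPM in GMECs, with 23.5 CPM in BFRTV0d and 43.4 CPM in BFRTV4d. KRT18 and KRT8 had 7373 and 8565 CPM in GMECs, and WFDC2 22931 CPM. Over the induction the summed level stayed under that of CiMECs, with 89.3, 100.5 and 110.3 CPM for KRT18 and 469, 618 and 338 CPM for KRT8 in BFRTV0d, BFRTV4d and BFRTV8d. The share of barcodes at equal depth moved more, with 4.64%, 18.98% and 25.3% for KRT18 and 12.6%, 50.1% and 55.3% for KRT8 in the same order of tables. In BFRTV0d the 10% of barcodes richest in KRT8 held 97.2% of its UMIs, against 35.1% in BFRTV8d.

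Several genes had climbed over the induction and were low in both CiMECs and GMECs. TP63 had 6.53, 63.01 and 133 CPM in BFRTV0d, BFRTV4d and BFRTV8d, 0.470 CPM in CiMECs and was not listed in GMECs. ELF5 had 0.230, 4.91 and 38.9 CPM over the 3 induction tables, 0.871 CPM in CiMECs and 0.263 CPM in GMECs. DHRS3 had 2.51, 681 and 1344 CPM, then 15.8 CPM in CiMECs and 22.6 CPM in GMECs. ID1, high from the start with 777 CPM in BFRTV0d and 1215 CPM in BFRTV4d, had 0.346 CPM in GMECs. IFI6 also climbed, with 98.2, 229 and 6707 CPM over the induction, but was not low in CiMECs. It had 1292 CPM in CiMECs and 107 CPM in GMECs, so the passaged cells lay between day 8 and the natural cells.

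For EHF and GATA3, the CiMECs level lay below that of GMECs as well, with 51.2 and 10.3 CPM in CiMECs against 125 and 69.00 CPM in GMECs. TAGLN had 1318, 779 and 162 CPM over the induction, 3070.2 CPM in CiMECs and 81.7 CPM in GMECs.

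Some genes stood higher in CiMECs than in both BFRTV8d and GMECs. TIMP1, KLK10 and CCL20 had 5438, 1622 and 2192 CPM in CiMECs against 1465, 55.2 and 150 CPM in GMECs. MSLN had 2.59 CPM in GMECs and at most 8.58 CPM in the 3 induction tables. Of the genes at least 4-fold higher with at least 50 CPM in CiMECs, 10 were under 10 CPM in GMECs, among them MMP23B, KCNK7, MLLT11, CHCHD6 and LAMP3, and the GMECs table did not list CHCHD6 or LAMP3. LAMP3 had 31.2 CPM in BFRTV0d and 19.02 CPM in BFRTV4d. MSLN marks mesothelial cells and LAMP3 is a lysosomal membrane protein of dendritic and lung epithelial cells.

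**Figure D5:**
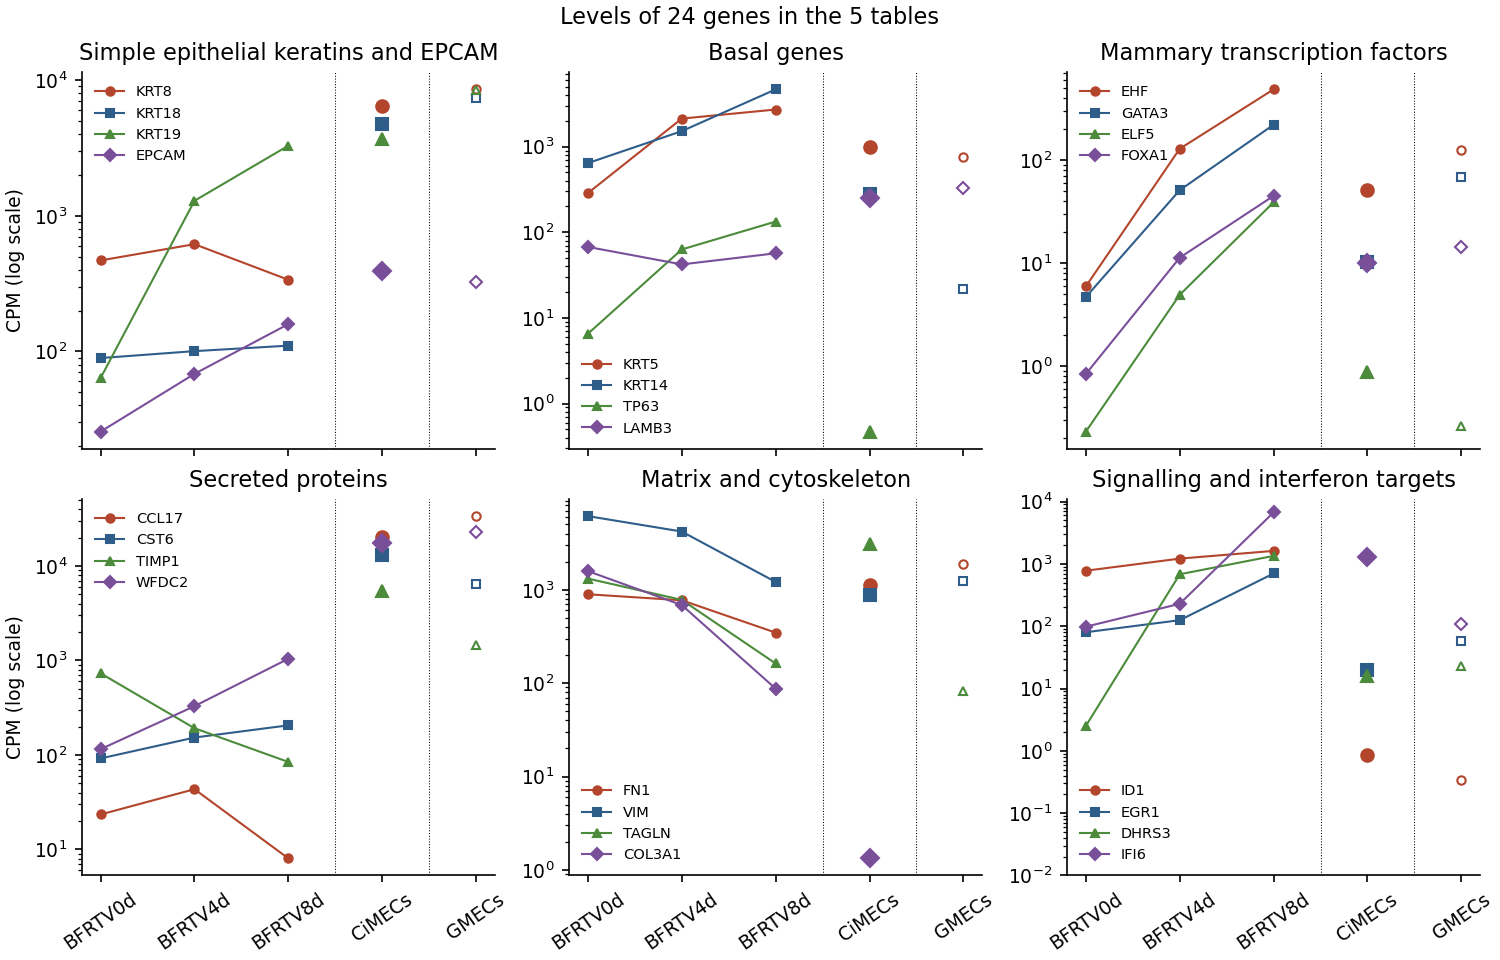
CPM (vertical, log scale) of 24 genes in 6 panels over the 5 tables, with lines joining BFRTV0d, BFRTV4d and BFRTV8d, large filled symbols for CiMECs and open symbols for GMECs. KRT8, KRT18, CCL17 and CST6 are far higher in CiMECs and GMECs than in the induction tables, TP63, ELF5, ID1 and DHRS3 are low in both, and TP63 and COL3A1 have no GMECs symbol because that table does not list them.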

How the data were processed

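Single-cell RNA-seq libraries (10x 3′ chemistry, version 2) were counted by the authors with Cell Ranger, whose version is not given in the sources used here, after FastQC 0.10.1 per the submitters' notes. The genome build is not given in the sources used here. The deposited tables hold UMI counts per gene and barcode, pooled per group, with no normalization and no mitochondrial genes. The BFRTV tables list no ribosomal protein genes, so 74 were left out of all 5 tables.

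Counts were summed per table and scaled to CPM, and folds were compared for genes listed in both tables with at least 10 CPM in 1. Intervals of folds are exact conditional binomial and those of shares Clopper-Pearson, at 95%. They cover counting error only. The calculation was tested on simulated data. Shares were taken after thinning each barcode to 3000 UMIs without ribosomal protein genes, leaving out shallower barcodes. No doublet caller was run, no cell clusters were formed, and no replicate test was possible with pooled tables.

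Of 15765 gene rows in the CiMECs and BFRTV8d tables, 15400 were named in RefSeq assembly ARS1.2, which was used for names and gene order only. The members of 41 gene lists, the comparison and its thresholds were chosen with earlier results of these data known. Named genes were the 15 highest and the 15 lowest folds among symbol-bearing genes of 50 CPM or more in a table, up to 6 extremes of each list and members against its median, the 10 genes of highest CPM per table, the 8 of highest CPM listed in 1 table only, and 20 chosen genes. Other list members, and CHCHD6, CIAPIN1, KCNK7, MLLT11 and LOC102174170, were named after their values were seen. A few items are not reported here. The 12 alternatives changed the scaling, the minimum level, the genes or the barcodes, with TMM factors from edgeR and median-of-ratios factors from DESeq2. Python 3.11.15 with NumPy, SciPy and pandas was used.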

Additional observations from a re-analysis of the deposited data

How the results depend on the processing

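The count of genes at least 4-fold higher in CiMECs was 610 with TMM factors, 659 with median-of-ratios factors, 154 with ribosomal protein genes kept in the CiMECs total, 144 with a minimum of 50 CPM and 378 with no minimum, against 239 as reported. The count of genes at least 4-fold lower was 629, 589, 2086, 528 and 2420 under the same settings, against 1360. The median log2 fold of all genes was 0.11 under TMM scaling and 0.16 under median-of-ratios scaling, -1.22 with ribosomal protein genes kept, -0.66 with the 20 genes of highest CPM in either table left out of the totals, -0.44 at 50 CPM, -0.82 without barcodes with mitosis UMIs and -0.69 as a mean of per-barcode CPM, against -0.76. The median log2 fold of whole lists, before subtraction of the median of all genes, changed sign under TMM and under median-of-ratios scaling for the junction list (0.11 and 0.16, against -0.63), the TGF-beta list (0.27 and 0.33, against -0.58) and chaperones (0.063 and 0.12, against -0.68). It changed sign with median-of-ratios factors alone for the oxidative stress list (0.021, against -0.78) and translation factors (0.036, against -0.76), and with no minimum level for the mucosal list (-0.0014, against 0.61). PCNA had a log2 fold of -0.0098 without barcodes with mitosis UMIs, against 1.13. Both scaling factors raise all genes together by construction, and the cause of the other changes was not tested. Relative to all genes, 25 of 32 list medians kept their sign in all 12 alternatives, and none of the 245 named genes that differed by 2-fold or more changed sign under either scaling.

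Leaving out 1 replicate at a time was not possible, since each group is 1 pooled table whose barcodes are not assigned to samples. No paired analysis was possible because the tables carry no replicate. The sequencing depth gives narrow counting intervals, which say nothing of the spread between cultures. Low genes are limited by the listing of genes in 6 cells for CiMECs and 11 cells for BFRTV8d. The table format, the depth, the medium, the passages and the group cannot be told apart.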
